A study of Danio rerio with 15 samples.

Results

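Chaperones bind unfolded or partly folded proteins and help them fold, assemble, cross membranes or be destroyed, and co-chaperones set which proteins they act on and when they release them. The genes described here are the 107 rows, of the 24609 genes in the deposited tables, whose symbols in lower case begin with hsp, dnaj, bag1 to bag6, cct2 to cct8, pdia, hyou1, calr, canx or serpinh1, leaving out hspg2, which encodes the matrix protein perlecan. The rule itself reads symbols and no measured value. By the textbook location of the protein, 60 of them act in the cytosol or nucleus, 29 in the endoplasmic reticulum (ER), 10 in mitochondria and 8 elsewhere. The 105 genes with enough counts were tested among 19006 genes, and hspa4b and hspb9 were too low to test.

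RNA came from zebrafish larvae, strain TL, at 4 days of age, raised in water with methylene blue and PTU, which blocks pigment formation. The 15 libraries form 5 groups of 3 that the labels call biological replicates. Of the wild-type larvae, 1 group was uninjected and 1 had received zymosan A, and so for larvae mutant in tfeb, tfe3a and tfe3b together, called triple mutants here. The last group were rraga mutants, which the labels do not list as injected. Zymosan A consists of yeast cell walls, which phagocytes engulf. Tfeb and Tfe3 are transcription factors of lysosomal genes, and RagA, the product of rraga, is a GTPase through which the lysosome holds these factors in the cytoplasm. There was no group injected without zymosan, so the injection and zymosan cannot be told apart. The larvae were imaged before they were frozen, and the lesions in the mutant alleles, and whether animals were pooled, are not given in the sources used here.

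HSP70 proteins bind short stretches of unfolded chains in a cycle driven by ATP. J proteins (dnaj genes) hand them their clients and start ATP hydrolysis, while HSP110 proteins and BAG proteins reopen the cycle by releasing nucleotide. HSP90 acts later, on clients that are close to their final form. Chaperonins enclose a chain in a chamber: CCT in the cytosol, and Hsp60 (hspd1) with its lid Hsp10 (hspe1) in mitochondria. Small heat shock proteins hold unfolded chains without using ATP. In the ER, BiP (hspa5) is the HSP70, Grp94 (hsp90b1) the HSP90, calnexin and calreticulin bind sugar chains, and protein disulfide isomerases (pdia genes) form and reshuffle disulfide bonds. Heat shock factors raise many cytosolic chaperones when proteins misfold there, and the unfolded protein response raises those of the ER.

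Libraries held between 12314113 and 17566540 counts, of which chaperone genes took between 1.035% and 1.244%. Of the mutated genes, tfe3b lay between 0 and 0.859 CPM (read counts scaled to the size of each library) in the 6 triple-mutant libraries and between 1.15 and 3.22 CPM in the 6 wild-type ones. The ranges of tfeb and tfe3a overlapped between these genotypes, at 7.26 to 12.2 against 6.77 to 11.2 CPM and at 1.201 to 5.69 against 1.66 to 6.29 CPM. The rraga message was higher in rraga mutants, at 24.9 to 26.6 CPM against 11.2 to 17.8 CPM in the other 12 libraries. Markers of skeletal muscle, lens, liver, exocrine pancreas, and cartilage, bone and notochord were above 0 in every group, as for whole larvae. Replicate 3 of the rraga mutants differed from its partners in some chaperone genes. Of the 87 genes with a mean of at least 5 CPM, 8 were over 1.5 times the mean of its 2 partners and 7 under that mean divided by 1.5. The calls that ended or were added without this library are therefore listed below, with values for some of them. Replicates 1 and 3 of zymosan-injected wild type also differed from their partners, replicate 1 in 5 genes up and 5 down and replicate 3 in 3 up and 5 down. They were not alone in this. Replicates 1 and 2 of the rraga mutants had 0 up and 6 down, and 4 up and 4 down. Replicates 1 and 2 of injected triple mutants had 4 up and 0 down, and 2 up and 4 down. Over tested genes of all kinds, replicate 3 of injected wild type differed most from its partners (chi-square per degree of freedom 25.45 and 23.61). For replicate 3 of the rraga mutants these values were 11 and 11.8. The counts at 1.5 times were taken over chaperone genes only, so they cannot be set against a share over all genes.

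Per length, as the deposited FPKM values give it, the cytosolic HSP90 gene hsp90ab1 had the highest level in uninjected wild type, at 849 ± 59.7 FPKM (SD, n = 3). Next came the CCT subunit genes cct4 at 219 ± 14.3, cct5 at 160 ± 6.06, cct3 at 143 ± 8.04 and cct7 at 134 ± 8.83 FPKM. The levels of cct3 and cct7 lay within their spread of each other. Among ER genes, the disulfide isomerase gene pdia3 stood at 120 ± 11.7 FPKM and hspa5 at 100 ± 4.08. The ER genes canx and calr3a were both near 85 (85.3 ± 4.59 and 85.2 ± 4.09) and hsp90b1 was at 65.4 ± 4.20. Cytosolic genes lay among these levels too: by mean, cct6a was above canx and calr3a, and dnaja2 was above hsp90b1. The means of cytosolic cct2 and dnaja2l lay between those of hsp90b1 and hspd1. The mitochondrial Hsp60 gene hspd1 reached 47.4 ± 3.20 FPKM and the constitutive HSP70 gene hspa8 41.8 ± 7.85, which overlap within their spread. Stress-inducible HSP70 genes were low, and the median of the 8 cytosolic HSP70 genes was 3.87 FPKM. Medians by compartment were 8.36 FPKM for the ER, 6.07 for the cytosol, 5.69 for mitochondria and 2.15 for the others. Levels within the cytosol spread from 0.209 to 849 FPKM and within the ER from 0.997 to 120.

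**Figure D1:**
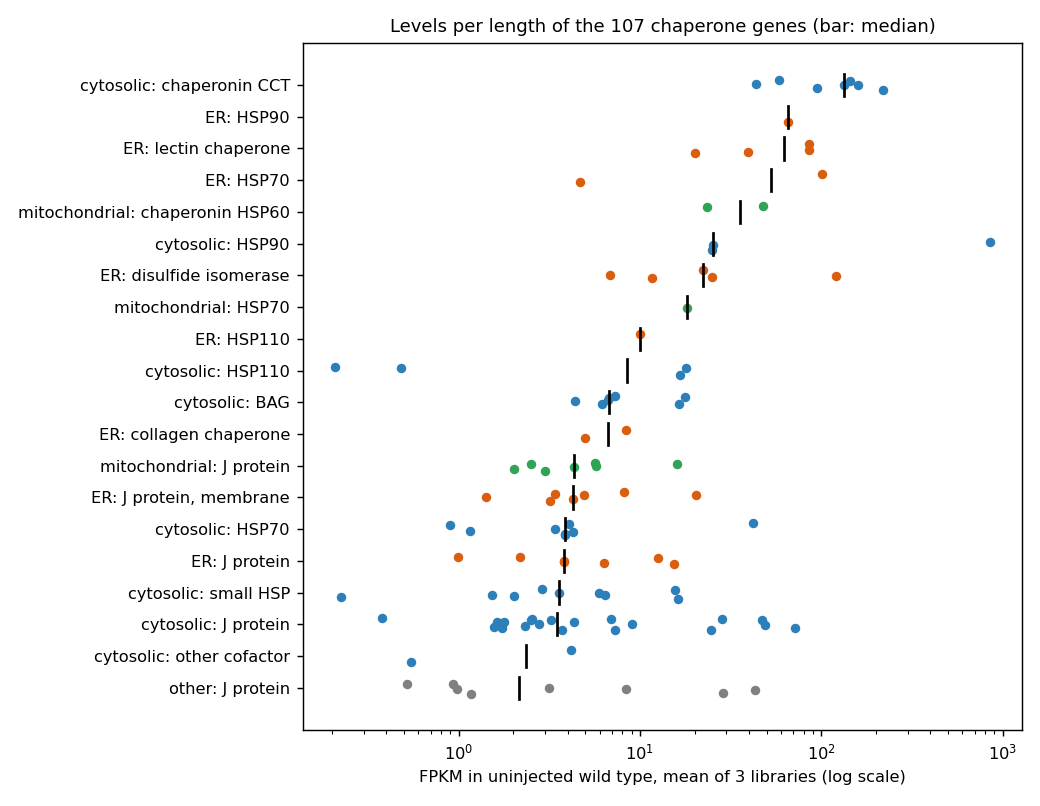
Level per length of each of the 107 chaperone genes in uninjected wild-type larvae (horizontal axis, FPKM on a log scale, mean of 3 libraries), with genes grouped by compartment and family in rows; each point is a gene and each bar the row's median. The CCT row has a median of 134 FPKM, and the point at 849 FPKM in the cytosolic HSP90 row is hsp90ab1.

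A gene is said to have changed where its adjusted p was under 0.05 in edgeR's quasi-likelihood test, adjusted over all 19006 genes. By this measure 43 of the 105 tested chaperone genes changed in at least 1 of the 6 comparisons between groups and 62 in none. Over all 19006 genes that share was 41.2%, so the chaperone genes as a whole changed about as often as other genes. The share was 37.9% among the 29 ER genes and 37.9% among the 58 tested cytosolic genes, and 6 of 10 mitochondrial genes changed. In bulk samples, fewer cells of a type and less RNA per cell cannot be told apart, which holds for every change below.

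Zymosan in wild type changed 13 of 105 chaperone genes (12.4%), 8 higher and 5 lower, where 9.9% of all genes changed (6.07% higher, 3.83% lower). Zymosan in triple mutants changed 20 (19%), 11 higher and 9 lower, against a background of 12.8% (7.64% higher, 5.18% lower). Of the 29 ER genes, 1 rose and 2 fell in wild type and 1 rose and 3 fell in triple mutants, while of the 58 cytosolic genes 4 rose and 2 fell in wild type and 6 rose and 4 fell in triple mutants. The median log2 fold change was close to 0 in both compartments and genotypes: -0.03 for the ER and 0.11 for the cytosol in wild type, and 0.02 and 0.01 in triple mutants. The summed level of the 10 mitochondrial genes was 335 to 359 CPM in uninjected and 460 to 512 CPM in injected wild type, and 284 to 328 against 471 to 523 CPM in triple mutants. The injected libraries were all above the uninjected ones in each genotype. The genes hspd1, hspa9 and hspe1 made up most of this sum, at means of 137, 85.8 and 42.7 CPM in uninjected wild type. Their means in injected wild type were 227, 112 and 63.4 CPM, while dnajc11b fell in both genotypes, so the sum does not describe the 10 genes alike. The calls of hsp70.3, hsp70l, hsp90aa1.2 and hspb11 in wild type, and of these 4 with dnajb1a, dnajc30b, hsp70.1, hspb6 and pdia6 in triple mutants, were each lost when at least 1 of the 6 libraries compared was left out. The sum of the ER genes overlapped between injected and uninjected larvae in both genotypes, as did that of the cytosolic genes. The largest part of the cytosolic sum was hsp90ab1, at a mean of 4727 CPM in uninjected wild type.

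**Figure D2:**
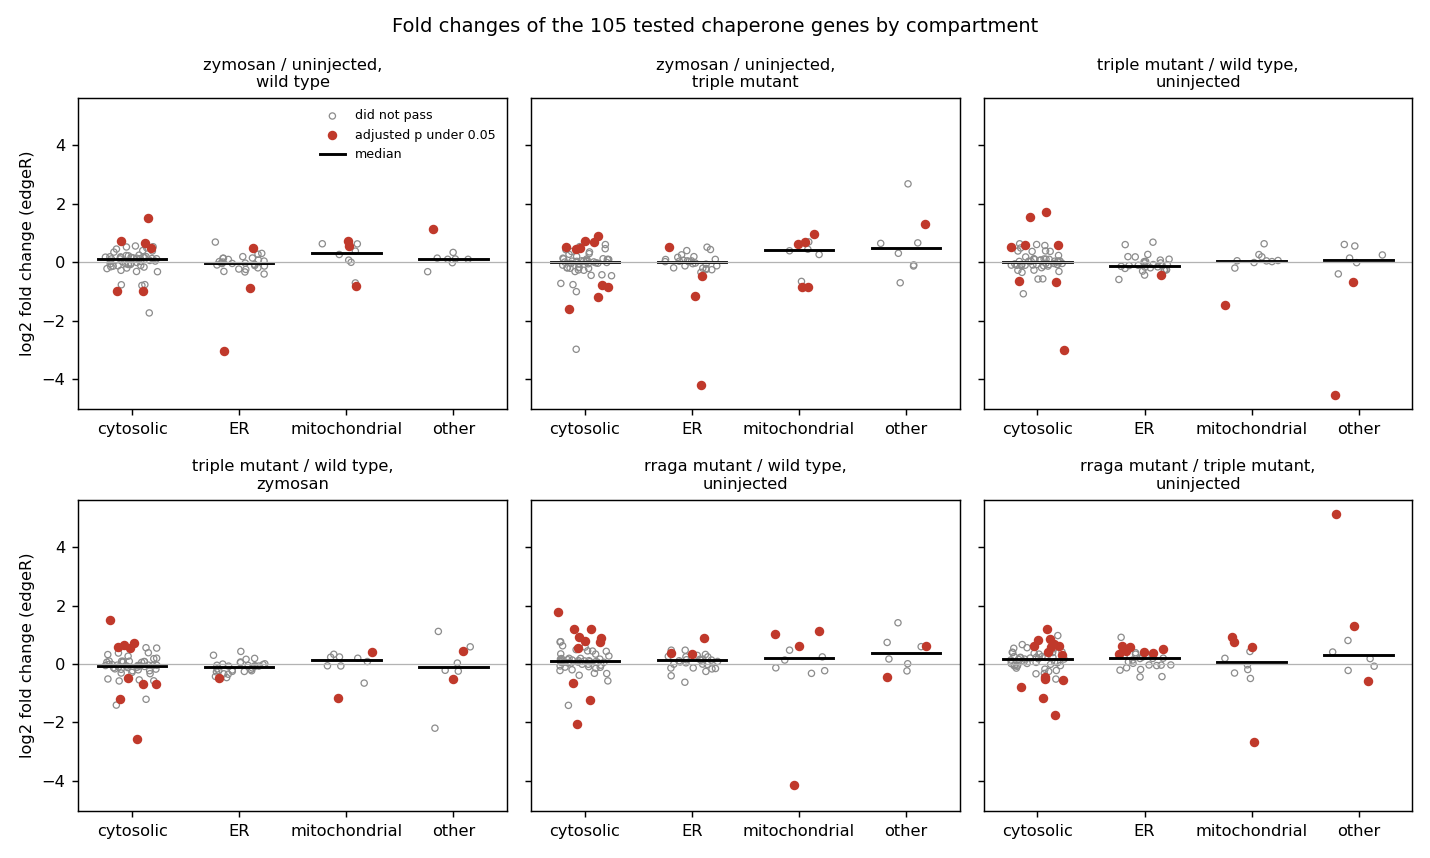
Log2 fold change (vertical axis, edgeR) of the 105 tested chaperone genes by compartment in 6 comparisons, with filled red points for an adjusted p under 0.05, open points for the rest and black bars for medians. Medians lie near 0 while single genes stand far from it: serpinh1b at -3.05 and -4.21 in the ER columns of the zymosan panels, and hspa9 at -4.14 in the mitochondrial column of rraga mutants against wild type. The extreme points in the columns of other genes in the panels with uninjected triple mutants are dnajc25, with 1 count in that group, so their heights are no estimate of a fold.

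The largest change after zymosan was in the ER, in serpinh1b. It encodes Hsp47, which binds procollagen in the ER and escorts it to the Golgi. It lies on chromosome 15 from 29382454 to 29388012 on the minus strand (GRCz11) and stands in the tables as ENSDARG00000019949. Its level was 24.0, 20.5 and 18.5 CPM in uninjected wild type and 3.58, 1.97 and 2.14 CPM after zymosan. In triple mutants it was 31.7, 34.4 and 35.5 CPM uninjected and 1.49, 1.90 and 2.08 CPM injected. All 6 injected libraries lay far below all 6 uninjected ones. It fell by 3.05 ± 0.32 (SE) on the log2 scale in wild type (adjusted p = 4.65e-07) and by 4.21 ± 0.33 in triple mutants (adjusted p = 3.64e-09). The difference between these changes was -1.15 ± 0.48 with an adjusted p of 0.759.

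Its paralogue serpinh1a was at 36.2, 28.4 and 32.1 CPM in uninjected wild type and 24.4, 15.7 and 12.8 CPM after zymosan, and at 35.8, 26.4 and 36.0 against 16.9, 12.7 and 14.6 CPM in triple mutants. No injected library reached an uninjected one of its genotype. It fell by 0.88 ± 0.20 in wild type (adjusted p = 0.00433) and by 1.15 ± 0.20 in triple mutants (adjusted p = 0.000248). Of markers of cartilage, bone and notochord, tissues rich in collagen, 0 of 9 changed in wild type and 3 of 9 rose in triple mutants (col10a1a, matn1 and col9a1a). Their summed level was 3680 to 3780 CPM in uninjected and 3530 to 4060 CPM in injected wild type, and 2890 to 3080 against 3280 to 3730 CPM in triple mutants, with none of the 9 at 0. The part of cell composition in the falls of serpinh1a and serpinh1b was not tested.

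The ER J protein gene dnajb11, whose product Erdj3 brings unfolded chains to BiP, rose in both genotypes. It was at 27.4, 31.4 and 28.2 CPM in uninjected and 39.8, 40.7 and 40.4 CPM in injected wild type, and at 25.8, 23.6 and 23.3 against 34.5, 33.6 and 35.2 CPM in triple mutants. The groups of each genotype did not overlap. The rise was 0.47 ± 0.10 in wild type (adjusted p = 0.00257) and 0.51 ± 0.10 in triple mutants (adjusted p = 0.00105). The disulfide isomerase gene pdia6 was at 55.5, 50.98 and 48.4 CPM against 43.9, 34.1 and 39.2 CPM after zymosan in wild type (log2 fold change -0.40, adjusted p = 0.0755), and at 42.0, 39.2 and 47.8 against 33.4, 28.8 and 29.5 CPM in triple mutants, where it fell by 0.49 ± 0.14 (adjusted p = 0.0248). Its injected libraries were the lower ones in each genotype, with no overlap.

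The other main ER chaperones did not pass. BiP's gene hspa5 stood at 243, 242 and 225 CPM in uninjected and 196, 205 and 170 CPM in injected wild type, and at 217, 201 and 242 against 185, 195 and 172 CPM in triple mutants. The injected libraries were the lower ones without overlap, with log2 fold changes of -0.32 (adjusted p = 0.0578) and -0.26 (adjusted p = 0.116). For hsp90b1 the uninjected libraries lay between 171 and 212 CPM over both genotypes and the injected ones between 139 and 191 CPM, which overlap. The HSP110 gene hyou1, a nucleotide exchange factor of BiP, had log2 fold changes of 0.08 and -0.03, calr -0.03 and -0.25, canx 0.14 and 0.09, pdia3 0.09 and 0.02, and pdia4 -0.23 and 0.07 in wild type and triple mutants. The stress-inducible ER J protein genes dnajb9a and dnajb9b were low, at 1.503 to 3.81 and 0.451 to 1.51 CPM over the 12 libraries of these genotypes, and neither passed. Of the pair dnajc3a and dnajc3b, which encode the co-chaperone P58IPK, neither passed after zymosan.

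In the cytosol, the BAG gene bag3 had the largest rise. Its product joins HSP70 to small heat shock proteins and sends aggregated clients to autophagy. It was at 14.5, 12.4 and 14.7 CPM in uninjected wild type against 41.6, 38.1 and 38.6 CPM after zymosan, and at 14.2, 12.3 and 13.0 against 22.3, 24.8 and 26.0 CPM in triple mutants. The injected libraries of wild type were above those of triple mutants, and both were above all uninjected ones. It rose by 1.504 ± 0.13 in wild type (adjusted p = 2.79e-08) and 0.89 ± 0.13 in triple mutants (adjusted p = 4.22e-05). Between the genotypes after zymosan, bag3 was lower in triple mutants by 0.69 on the log2 scale (-0.69 ± 0.13, adjusted p = 0.000517), but the interaction itself had a log2 value of -0.61 ± 0.18 with an adjusted p of 0.397. None of the other 6 BAG genes changed in any comparison.

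In the cytosol, 2 of the 8 HSP70 genes rose after zymosan in wild type and 3 in triple mutants, and hsp90aa1.2 fell in both. The stress-inducible HSP70 gene hsp70l, at 8.21, 8.14 and 11.8 CPM in uninjected wild type, was at 17.1, 14.3 and 13.2 CPM after zymosan (log2 fold change 0.67 ± 0.17, adjusted p = 0.0103). In triple mutants it went from 31.3, 29.9 and 30.8 to 42.4, 43.5 and 39.3 CPM (0.45 ± 0.15, adjusted p = 0.0485). The related hsp70.3 rose by 0.72 ± 0.21 and 0.69 ± 0.20 (adjusted p = 0.0305 and 0.0237), and hsp70.1 had values of 0.45 and 0.74, the second of which passed (adjusted p = 0.0224). Their neighbour hsp70.2 passed in neither genotype (0.24 and 0.53, adjusted p = 0.592 and 0.124). Without replicate 3 of injected wild type, the constitutive hspa8 was called higher in wild type (0.55 ± 0.14, adjusted p = 0.0142). The cluster hsp70.1, hsp70.2 and hsp70.3 lies on chromosome 3, with 4044 bp between the first pair and 1383 bp between the second, and near-identical copies such as these may share reads.

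The HSP90 gene hsp90aa1.2 was at 77.1, 78.0 and 80.2 CPM in uninjected and 50.4, 39.0 and 28.5 CPM in injected wild type, and at 107, 102 and 99.4 against 50.5, 58.7 and 63.5 CPM in triple mutants. Injected libraries were below uninjected ones throughout. It fell by 1.00 ± 0.27 (adjusted p = 0.02) and by 0.83 ± 0.27 (adjusted p = 0.0417). The gene hsp90aa1.1, which in zebrafish serves myosin folding in skeletal muscle, was at 68.8, 75.0 and 67.9 CPM in uninjected and 69.9, 71.8 and 47.1 CPM in injected wild type (log2 fold change -0.17, adjusted p = 0.727). In triple mutants it was at 226, 178 and 209 CPM uninjected and 77.5, 56.9 and 67.2 CPM injected, a log2 fold change of -1.60 ± 0.22 (adjusted p = 2.17e-05). The uninjected triple mutants were the only high group among these 4. Both genes lie 691 bp apart on chromosome 20 on the same strand, and reads of similar stretches cannot be told apart.

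Among cytosolic J proteins, dnajb1a, an Hsp40 that works with stress-inducible HSP70, fell in both genotypes. It was at 9.49, 11.6 and 12.3 against 4.98, 6.51 and 5.29 CPM in wild type (-0.99 ± 0.21, adjusted p = 0.00333) and at 10.9, 7.63 and 9.16 against 6.02, 4.60 and 5.51 CPM in triple mutants (-0.77 ± 0.21, adjusted p = 0.0171). The groups did not overlap in either genotype. The related dnaja1 was at 9.87, 10.2 and 12.2 against 5.45, 8.62 and 4.78 CPM in wild type (-0.77, adjusted p = 0.0557) and fell in triple mutants from 10.1, 10.8 and 13.7 to 6.10, 3.05 and 5.87 CPM (-1.20 ± 0.26, adjusted p = 0.00222). The small heat shock family gene hspb6 (Hsp20) rose by 0.53 ± 0.14 in triple mutants (adjusted p = 0.0112) and had a value of 0.40 in wild type (adjusted p = 0.0872). Another small heat shock gene, listed in the tables as hspb11 and in the name table as hspb9l, rose by 0.49 ± 0.13 and 0.50 ± 0.12 (adjusted p = 0.0154 and 0.00871).

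In mitochondria the chaperonin and its lid rose in both genotypes. Hsp60's gene hspd1 was at 138, 147 and 128 CPM in uninjected and 229, 234 and 219 CPM in injected wild type, and at 158, 137 and 173 against 292, 286 and 326 CPM in triple mutants. Every injected library was above every uninjected one. It rose by 0.72 ± 0.10 (adjusted p = 1.39e-05) and 0.95 ± 0.10 (adjusted p = 1.72e-07). The lid gene hspe1 was at 48.4, 36.7 and 43.0 against 61.5, 64.9 and 63.6 CPM, and at 49.4, 36.8 and 44.1 against 65.9, 68.7 and 66.4 CPM, again without overlap (0.57 ± 0.11, adjusted p = 0.00175, and 0.63 ± 0.11, adjusted p = 0.00043). These 2 genes lie head to head on chromosome 9 with 234 bp between them. The mitochondrial HSP70 gene hspa9 had values of 0.38 in wild type (adjusted p = 0.12) and 0.70 ± 0.16 in triple mutants (adjusted p = 0.00335). The gene dnajc11b, of a J protein of the mitochondrial membranes, went the other way, from 17.4, 18.02 and 19.5 to 11.2, 8.42 and 11.9 CPM in wild type and from 16.2, 19.5 and 18.7 to 9.96, 10.6 and 9.52 CPM in triple mutants (-0.80 ± 0.15 and -0.85 ± 0.15, adjusted p = 0.000842 and 0.000305). Another mitochondrial J protein gene, dnajc30b, fell in triple mutants (-0.84 ± 0.26, adjusted p = 0.0322) and had a value of -0.71 in wild type (adjusted p = 0.0867). Outside these compartments, dnajc4 rose from 8.27, 10.1 and 9.23 to 21.4, 19.7 and 19.2 CPM in wild type (1.13 ± 0.17, adjusted p = 6.04e-05) and from 5.67, 6.96 and 4.28 to 14.3, 12.7 and 15.4 CPM in triple mutants (1.31 ± 0.17, adjusted p = 1.09e-05).

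**Figure D3:**
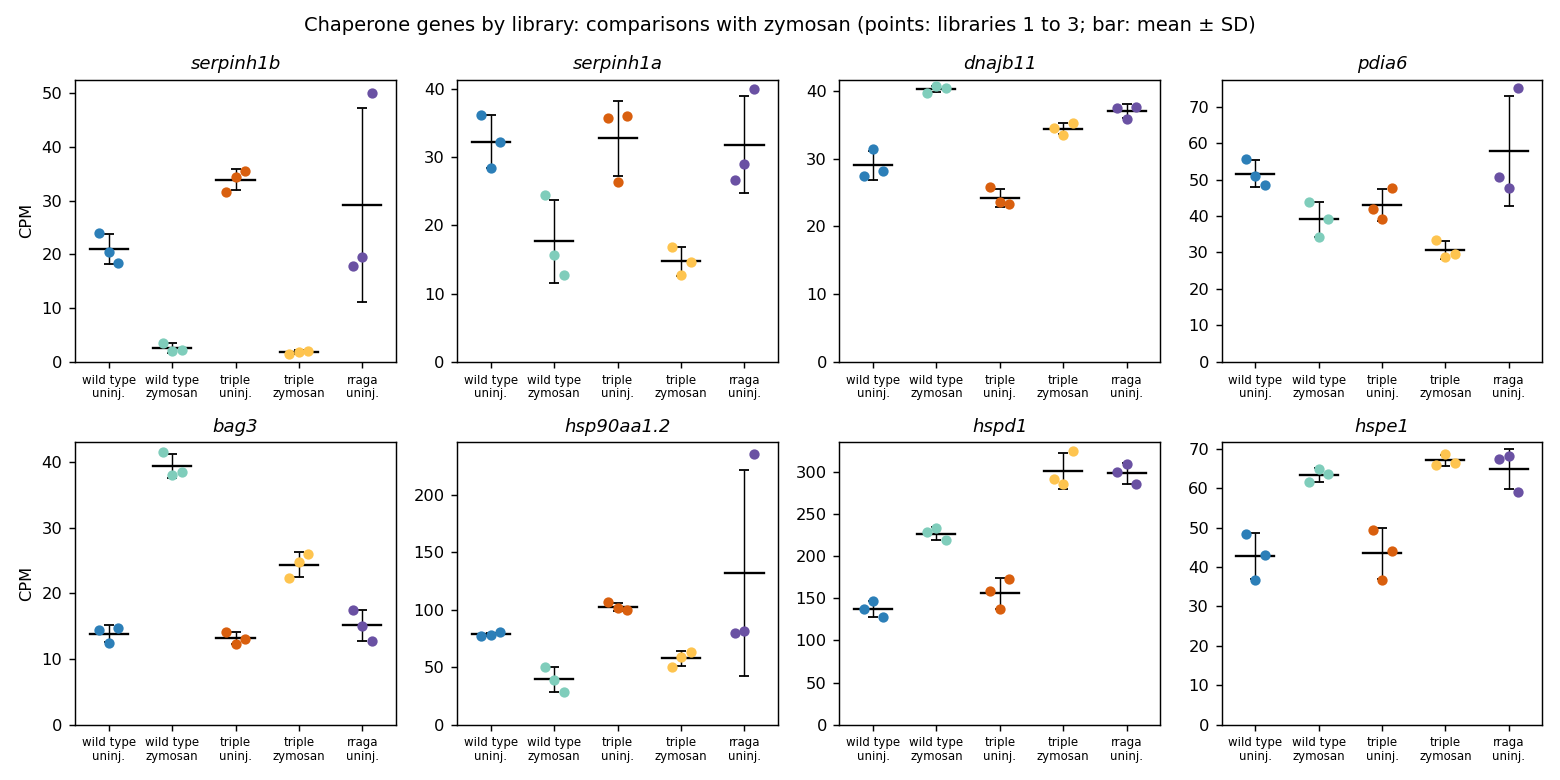
CPM (vertical axis, linear, from 0) of 8 chaperone genes in every library, with points for the 3 libraries of each of the 5 groups and bars for mean ± SD. In both genotypes the injected libraries are lower for serpinh1b, serpinh1a, pdia6 and hsp90aa1.2 and higher for dnajb11, bag3, hspd1 and hspe1; the high rraga point for serpinh1b (50.04 CPM), serpinh1a (39.9 CPM), pdia6 (75.0 CPM) and hsp90aa1.2 (235 CPM) is replicate 3.

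Whether the zymosan change differed between genotypes was tested as an interaction. No chaperone gene passed in edgeR's quasi-likelihood test and 4 had an unadjusted p under 0.05 (bag3, dnajc11a, hsp90aa1.1 and serpinh1b), where 0.142% of all genes passed (0.0316% higher, 0.11% lower), and DESeq2 also called 0. The nearest to passing was hsp90aa1.1, at -1.44 ± 0.32 with an adjusted p of 0.0791. It passed without a filter on low counts, in the fit restricted to the groups compared, and without replicate 3 of injected wild type.

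Uninjected triple mutants differed from uninjected wild type in 12 of 105 chaperone genes (11.4%), 5 higher and 7 lower, where 9.77% of all genes differed (3.93% higher, 5.84% lower). After zymosan the genotypes differed in 15 (14.3%), 7 higher and 8 lower, against a background of 11.9% (5.21% higher, 6.66% lower). Among the 29 ER genes 1 was lower in each comparison and 0 higher, while among the 58 cytosolic genes 5 were higher and 3 lower without zymosan and 5 higher and 5 lower with it. The median log2 fold change of the ER genes was -0.12 uninjected and -0.09 injected, with 20 and 22 of 29 below 0, and that of the cytosolic genes 0.02 and -0.06, against 0.00 and -0.01 for all genes. Of the cytosolic calls, 5 of 8 without zymosan and 5 of 10 with it were among the 8 tested small heat shock genes, 2 higher and 3 lower each time. None of the 7 CCT genes passed. Calls that held whichever library was left out were those of hspa9, hsp70l, hsp90aa1.1 and hspb1 without zymosan, and those of bag3, calr, hsp70l, hspa9, hspb2, hspb6, hspb11, hspb15 and hspd1 with it.

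The mitochondrial HSP70 gene hspa9, whose product mortalin pulls proteins into mitochondria and folds them there, was lower in triple mutants. It was at 82.2, 97.7 and 77.4 CPM in wild type and 26.5, 33.6 and 32.4 CPM in triple mutants without zymosan, and at 97.4, 134 and 103 against 65.0, 39.6 and 46.0 CPM with it. All triple-mutant libraries were below all wild-type ones. The log2 fold changes were -1.47 ± 0.16 (adjusted p = 4.42e-07) and -1.15 ± 0.15 (adjusted p = 9.7e-06). The chaperonin gene hspd1, which works downstream of hspa9 in the matrix, had a value of 0.18 without zymosan (adjusted p = 0.278) and was higher in triple mutants after it (0.41 ± 0.10, adjusted p = 0.00525).

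The stress-inducible HSP70 gene hsp70l was the gene most raised in triple mutants among those of the cytosol. Its values, given above, were 29.9 to 31.3 CPM in triple mutants against 8.14 to 11.8 CPM in wild type without zymosan and 39.3 to 43.5 against 13.2 to 17.1 CPM with it. The genotypes did not overlap. It was higher by 1.71 ± 0.16 (adjusted p = 7.18e-08) and 1.49 ± 0.15 (adjusted p = 2.69e-07). The gene lies on chromosome 8 from 4798158 to 4800911 (GRCz11), 2.98 Mb from tfe3a, a mutated gene. Within 3 Mb of tfe3a, 13 of 69 tested genes (18.8%) differed between these genotypes without zymosan and 16 (23.2%) with it, above the shares over all genes, and the part of linked strain variation in the hsp70l result was not tested. Of the relatives on chromosome 3, hsp70.3 had values of 0.57 and 0.54 (adjusted p = 0.0938 and 0.0819), hsp70.2 0.09 and 0.38, and hsp70.1 0.37 and 0.66, the second of which passed (adjusted p = 0.0454). The constitutive hspa8 had values of 0.49 (adjusted p = 0.0507) and 0.19.

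In the HSP90 family, hsp90aa1.1 was higher in uninjected triple mutants, at 178 to 226 CPM against 67.9 to 75.0 CPM in wild type, without overlap (1.53 ± 0.22, adjusted p = 4.34e-05). After zymosan the genotypes overlapped, at 56.9 to 77.5 against 47.1 to 71.8 CPM (0.10, adjusted p = 0.845). Its muscle cofactor unc45b, a myosin chaperone, was also higher in uninjected triple mutants (0.70 ± 0.14, adjusted p = 0.00135). Skeletal muscle markers were lower or level there: 3 of 10 tested markers were lower and 0 higher, with a summed level of 81700 to 108000 CPM against 107000 to 122000 CPM in wild type and none of the 11 listed markers at 0. In the same comparison 7 of 10 lens markers were lower and 1 higher (summed level 7770 to 9170 against 11300 to 13700 CPM), and 6 of 9 markers of cartilage, bone and notochord were lower and 0 higher (2890 to 3080 against 3680 to 3780 CPM), with none at 0. Of exocrine pancreas markers 2 of 9 were higher and 0 lower, and none of 10 liver markers passed. The part of these markers in the chaperone differences was not tested. The neighbour hsp90aa1.2 had values of 0.39 and 0.55 and hsp90ab1 of -0.19 and -0.29, none of which passed.

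Small heat shock genes moved both ways in triple mutants. The gene hspb6 was at 23.6, 18.8 and 17.6 CPM against 14.5, 11.8 and 13.6 CPM in wild type without zymosan, and at 26.1, 28.9 and 31.4 against 14.7, 19.3 and 18.6 CPM with it. It was higher by 0.58 ± 0.14 (adjusted p = 0.00897) and 0.71 ± 0.14 (adjusted p = 0.001), and hspb11 by 0.53 ± 0.13 in both (adjusted p = 0.00873 and 0.00555). Hsp27's gene hspb1 was lower, at 18.3, 16.2 and 15.1 CPM against 24.9, 25.9 and 27.3 CPM (-0.65 ± 0.15, adjusted p = 0.00515), and with zymosan by -0.49 ± 0.15 (adjusted p = 0.0327). The gene hspb15 was at 4.42 to 5.91 against 6.73 to 9.84 CPM (-0.69 ± 0.22, adjusted p = 0.0458) and after zymosan at 3.72 to 6.10 against 10.3 to 13.1 CPM (-1.20 ± 0.21, adjusted p = 0.000427). Low counts of hspb2, whose product joins that of hspb3 in mammals, were lower still in triple mutants, at 0.207, 0.111 and 0.751 CPM against 1.35, 1.58 and 5.66 CPM (-3.02 ± 0.68, adjusted p = 0.00455) and at 0.286 to 0.669 against 1.97 to 5.10 CPM after zymosan (-2.58 ± 0.65, adjusted p = 0.00902). Muscle expresses hspb2 in mammals, and the part of the lower muscle markers in this result was not tested.

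In the ER, 1 gene passed in each comparison of these genotypes. Calreticulin's paralogue calr3b was at 41.1, 43.2 and 47.5 CPM against 62.2, 61.7 and 53.0 CPM in uninjected larvae (-0.43 ± 0.12, adjusted p = 0.0209), and calr at 68.2, 72.6 and 67.4 against 104, 99.0 and 90.1 CPM after zymosan (-0.49 ± 0.12, adjusted p = 0.00701). In both cases the triple-mutant libraries were the lower ones. Larger values that did not pass in uninjected larvae were those of serpinh1b, at 31.7 to 35.5 against 18.5 to 24.0 CPM without overlap (0.69, adjusted p = 0.103), dnajc3a (0.60, adjusted p = 0.207) and dnajc14 (-0.59, adjusted p = 0.183). After zymosan, leaving out replicate 3 of wild type added calls of calr3a (-0.43), hyou1 (-0.35) and pdia3 (-0.35), with adjusted p of 0.0114, 0.0422 and 0.0309. The log2 fold changes of hspa5 were -0.11 and -0.05, of hsp90b1 0.10 and 0.00, of hyou1 -0.17 and -0.27, of pdia3 -0.16 and -0.23, of pdia4 -0.14 and 0.16 and of dnajb11 -0.26 and -0.23, none of which passed. Among J proteins elsewhere, dnajc6, the uncoating factor auxilin, was higher by 0.60 ± 0.17 and 0.59 ± 0.17 (adjusted p = 0.0235 and 0.0226), and dnajc4 lower by -0.69 ± 0.18 and -0.51 ± 0.16 (adjusted p = 0.013 and 0.0416). The ribosome-bound J protein gene dnajc2 was lower after zymosan (-0.69 ± 0.17, adjusted p = 0.00845) and dnajc5ga higher (0.45 ± 0.15, adjusted p = 0.0428). The gene dnajc25 had 0, 0 and 1 counts in uninjected triple mutants against 6, 10 and 12 in wild type and passed (adjusted p = 0.0184).

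Against uninjected wild type, rraga mutants differed in 20 of 105 chaperone genes (19%), 15 higher and 5 lower, where 14% of all genes differed (7.58% higher, 6.41% lower). Against uninjected triple mutants they differed in 29 (27.6%), 21 higher and 8 lower, against a background of 25.4% (13.9% higher, 11.5% lower). These comparisons share the rraga libraries, and the first shares its wild-type libraries with the comparisons above. Among ER genes 3 of 29 were higher and 0 lower against wild type, and 7 higher and 0 lower against triple mutants. Among cytosolic genes 8 of 58 were higher and 3 lower, and 9 higher and 6 lower. Median log2 fold changes were 0.13 and 0.20 for the ER and 0.11 and 0.17 for the cytosol, against 0.00 in both for all genes. Against wild type, the calls of hspa9, hspa8, hspd1, hspe1, hspb6, hspb11, hsp70l, hsp70.3, hspa4a and dnajc5aa held whichever library was left out, and each of the other 10 was lost in at least 1 such fit.

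The largest difference was in hspa9, on chromosome 14 from 12142813 to 12168897 (GRCz11). It was at 4.29, 5.30 and 4.95 CPM in rraga mutants against 82.2, 97.7 and 77.4 CPM in wild type and 26.5, 33.6 and 32.4 CPM in triple mutants. The groups stood apart in that order with no overlap. It was lower by -4.14 ± 0.19 against wild type (adjusted p = 8.81e-13) and -2.67 ± 0.19 against triple mutants (adjusted p = 4.76e-10). The gene lies 1.86 Mb from rraga on the same chromosome. Within 2 Mb of rraga, 19 of 44 tested genes (43.2%) differed between rraga mutants and wild type, 3 higher and 16 lower, and the part of variation linked to the rraga allele in the hspa9 result was not tested.

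Of the other 9 mitochondrial genes, 3 were higher in rraga mutants than in wild type and 6 did not pass. For hspd1 the rraga libraries were at 300.48, 310.2 and 286 CPM against 138, 147 and 128 CPM in wild type, with no overlap (1.12 ± 0.10, adjusted p = 3.07e-08). For hspe1 they were at 67.3, 68.2 and 58.9 against 48.4, 36.7 and 43.0 CPM, again with no overlap (0.60 ± 0.11, adjusted p = 0.000826). The J protein gene dnaja3b (Tid1, a partner of hspa9) was at 7.94, 11.6 and 7.04 against 4.23, 5.20 and 3.66 CPM and rose by 1.01 ± 0.25 (adjusted p = 0.00782). Against triple mutants these values were 0.94 ± 0.10, 0.58 ± 0.11 and 0.75 ± 0.25 (adjusted p = 1.62e-07, 0.000571 and 0.0269).

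In the cytosol the constitutive HSP70 gene hspa8 was lower and stress-inducible HSP70 genes were higher in rraga mutants. The level of hspa8 was 121, 123 and 121 CPM against 295, 233 and 342 CPM in wild type and 482, 374 and 364 CPM in triple mutants. All 3 rraga libraries were below every library of the other groups. It was lower by -1.25 ± 0.16 (adjusted p = 8.71e-06) and -1.74 ± 0.16 (adjusted p = 3.88e-08). A second gene that the name table calls HSPA8, si:dkey-4p15.3, was outside the naming rule and had a value of 0.65 against wild type (adjusted p = 0.152). Against triple mutants this second gene was higher in rraga mutants (0.85 ± 0.29, adjusted p = 0.0369), the opposite direction to hspa8.

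Of the inducible genes, hsp70.3 was at 24.3, 25.7 and 12.6 CPM in rraga mutants against 8.40, 8.60 and 10.6 CPM in wild type (1.18 ± 0.21, adjusted p = 0.000375), hsp70l at 24.4, 23.3 and 16.4 against 8.21, 8.14 and 11.8 CPM (1.19 ± 0.16, adjusted p = 2.08e-05) and hsp70.2 at 22.6, 22.005 and 11.3 against 11.2, 8.45 and 10.3 CPM (0.90 ± 0.22, adjusted p = 0.0076). Replicate 3 was the lowest rraga library in each and still above the wild-type ones. For hsp70.1 the values were 15.5, 13.4 and 7.61 against 8.91, 7.24 and 7.49 CPM, which overlap (0.62, adjusted p = 0.0655), and it passed without replicate 3. The Hsp40 gene dnajb1b was at 12.02, 17.4 and 9.76 against 7.37, 6.64 and 6.71 CPM (0.92 ± 0.22, adjusted p = 0.00689). The HSP110 gene hspa4a, a nucleotide exchange factor of HSP70, was at 87.4, 85.7 and 129.8 against 62.2, 57.2 and 56.3 CPM (0.79 ± 0.14, adjusted p = 0.000425), with no overlap. Its relatives hsph1, at 1.00 to 1.84 against 1.31 to 2.24 CPM, and hspa4l did not pass.

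Among small heat shock genes, hspb6 was at 49.7, 46.1 and 41.1 CPM in rraga mutants against 14.5, 11.8 and 13.6 CPM in wild type, the largest rise of a chaperone gene in this comparison (1.78 ± 0.14, adjusted p = 9.69e-09). The rraga libraries were also above all triple-mutant ones (1.19 ± 0.14, adjusted p = 8.23e-07). In contrast hspb11 was at 10.7, 12.2 and 9.69 CPM against 18.2, 15.2 and 17.6 CPM in wild type and 24.1, 22.4 and 27.2 CPM in triple mutants, the lowest group (-0.65 ± 0.14, adjusted p = 0.00198, and -1.18 ± 0.13, adjusted p = 6.85e-07). The level of hspb2 was 0.646 to 0.715 CPM against 1.35 to 5.66 CPM in wild type (-2.05 ± 0.63, adjusted p = 0.0316), a call that was lost when any of 4 libraries was left out. The gene hspb1 did not pass against wild type (-0.23, adjusted p = 0.347).

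**Figure D4:**
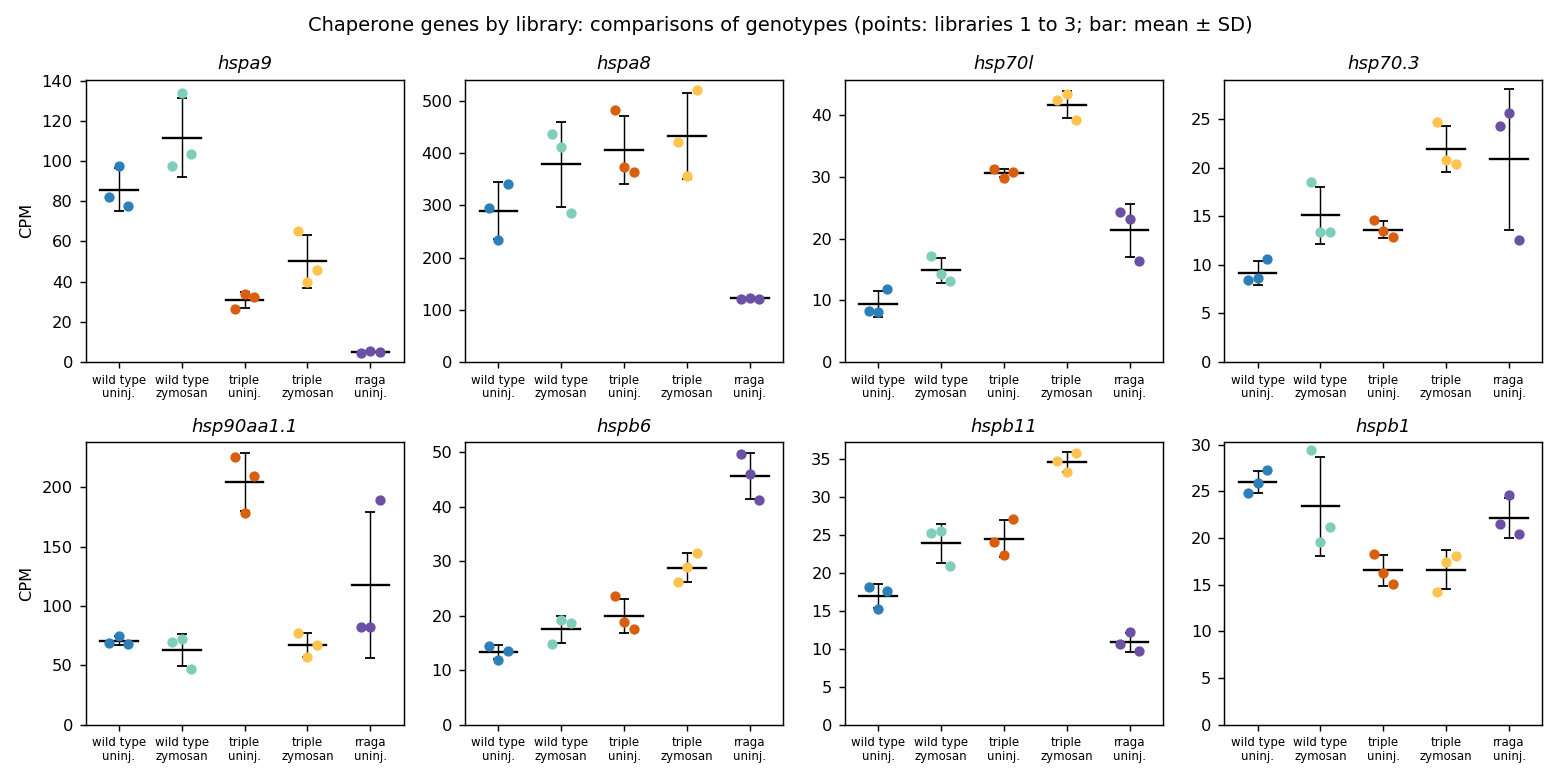
CPM (vertical axis, linear, from 0) of 8 cytosolic and mitochondrial chaperone genes in every library, with points for the 3 libraries of each of the 5 groups and bars for mean ± SD. For hspa9 the rraga points lie between 4.29 and 5.30 CPM, below the triple mutants and wild type, and for hsp90aa1.1 uninjected triple mutants (178 to 226 CPM) and rraga replicate 3 (189 CPM) stand above the rest.

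In the fit of all 15 libraries, the ER genes that changed in rraga mutants were all higher. They were 10.3% of ER genes against wild type (14% of all genes) and 24.1% against triple mutants (25.4% of all genes). Calnexin's gene canx was at 446, 456 and 516 CPM against 345, 362 and 383 CPM in wild type, without overlap (0.38 ± 0.10, adjusted p = 0.00903). This call was lost without replicate 1 of wild type. The gene lies 2.34 Mb from rraga. Within 3 Mb of rraga, 29 of 71 tested genes (40.8%) differed from wild type, 9 higher and 20 lower, and the part of linked variation in the canx result was not tested. For dnajb11 the values were 37.6, 35.8 and 37.7 against 27.4, 31.4 and 28.2 CPM, also without overlap (0.35 ± 0.10, adjusted p = 0.019). Its call was lost without replicate 1 of the rraga mutants and without replicate 1 or 3 of wild type. The gene dnajc3a was at 7.23, 7.51 and 10.7 against 3.85, 5.13 and 4.79 CPM (0.89 ± 0.28, adjusted p = 0.035). It lost its call without replicate 3 of the rraga mutants (0.69, adjusted p = 0.141) and without any 1 of the 3 wild-type libraries. BiP's gene hspa5, at 244, 237 and 297 against 243, 242 and 225 CPM, overlapped wild type (0.13, adjusted p = 0.467), and hyou1, at 55.4, 56.9 and 71.2 against 47.6, 52.5 and 46.3 CPM, did not overlap and did not pass (0.32, adjusted p = 0.0572). Against triple mutants the 7 higher ER genes were canx (0.41), dnajb11 (0.61), hyou1 (0.49), calr3b (0.58), calr3a (0.37), pdia6 (0.43) and dnajc1 (0.33). Their adjusted p lay between 7.57e-05 and 0.0277. Without replicate 3 of the rraga mutants, calr3a and pdia6 lost their calls (0.26 and 0.19, adjusted p = 0.114 and 0.268). In that fit pdia5 was called higher (0.29, adjusted p = 0.0479) and serpinh1b lower (-0.86, adjusted p = 0.00093).

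In the remaining families, hsp90aa1.1 was at 82.6, 82.1 and 189 CPM in rraga mutants against 68.8, 75.0 and 67.9 CPM in wild type, without overlap (0.74 ± 0.22, adjusted p = 0.0275). This call was lost without replicate 3 of the rraga mutants and without any 1 of the 3 wild-type libraries. The gene dnajc4, which lies 5.53 Mb from rraga, was at 15.7, 14.3 and 12.1 CPM against 8.27, 10.1 and 9.23 CPM (0.61 ± 0.17, adjusted p = 0.0169). A gene of a synaptic vesicle J protein, dnajc5aa (cysteine string protein), was at 30.0, 31.7 and 36.0 CPM against 47.2, 38.8 and 47.6 CPM (-0.45 ± 0.11, adjusted p = 0.00636). The rraga libraries were the higher ones for dnajc4 and the lower ones for dnajc5aa, with no overlap. Against uninjected triple mutants the further genes that were higher were dnajc4 (1.305), dnajb1b (0.84), hsp70.2 (0.81), hspa4a (0.67), dnajb1a (0.61), hsp70.3 (0.61), dnajc2 (0.59), hspb1 (0.42) and dnaja2 (0.29), with adjusted p from 7.23e-06 to 0.0406. Those that were lower were hsp90aa1.1 (-0.79), dnajc5aa (-0.59), dnajc6 (-0.54), hsp70l (-0.52) and dnajb4 (-0.43), and dnajc25 had 16, 16 and 13 counts in rraga mutants against 0, 0 and 1. The groups overlapped for hsp90aa1.1, dnajb1a, hsp70.2 and hsp70.3 and not for the others. Of all 29 calls against triple mutants, those of calr3b, canx, dnajb11, dnajc25, dnajc4, dnajc5aa, hspa4a, hspa8, hspa9, hspb11, hspb6, hspd1, hspe1 and hyou1 held whichever library was left out.

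Replicate 3 of the rraga mutants held more message of hsp90aa1.1, hsp90aa1.2 and hsp90b1 and less of the stress-inducible HSP70 genes than its partners. For hsp90aa1.2 the 3 libraries were at 79.3, 81.5 and 235 CPM, and replicate 3 was 2.93 times the mean of the others. The ratio was 2.67 for serpinh1b (17.9, 19.6 and 50.04 CPM), 2.30 for hsp90aa1.1 (82.6, 82.1 and 189 CPM), 1.79 for pdia4 and 1.75 for hsp90b1. In the other direction it was 0.528, 0.509 and 0.502 for hsp70.1, hsp70.2 and hsp70.3, 0.465 for pdia2 and 0.362 for hspa13. Replicates 1 and 2 lay within 1 CPM of each other for hsp90aa1.1 and hsp70.2. Against wild type, leaving out this library ended the calls of cct2, dnajc3a, hsp90aa1.1 and hspb2 and added dnajc22 and hsp70.1. Against triple mutants it ended those of calr3a, dnajb1a, hsp70l and pdia6 and added pdia5 and serpinh1b. Without it hsp90aa1.1 had a value of 0.22 against wild type (adjusted p = 0.366) and -1.31 ± 0.15 against triple mutants (adjusted p = 1.44e-06), serpinh1b was lower than in triple mutants (-0.86 ± 0.17, adjusted p = 0.00093), and hsp70.1 was higher than in wild type (0.87 ± 0.20, adjusted p = 0.00432). The labels give no batch or date for this library.

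**Figure D5:**
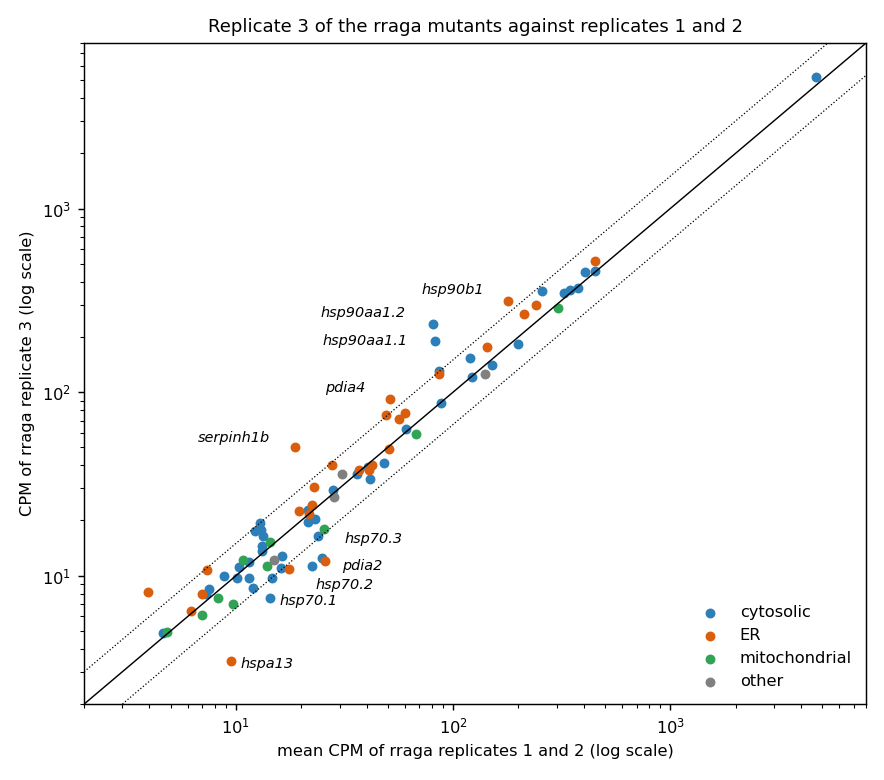
CPM of rraga replicate 3 (vertical axis) against the mean CPM of rraga replicates 1 and 2 (horizontal axis), both on log scales, for the 87 chaperone genes with a mean of at least 5 CPM, coloured by compartment; the solid line marks equality and the dotted lines a ratio of 1.5 either way. Of these genes 8 lie above the upper dotted line, hsp90aa1.2 and serpinh1b farthest, and 7 below the lower one, hspa13 farthest.

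For the chaperonin CCT and the disulfide isomerases, the number of calls in comparisons with injected wild type depended on replicate 3 of that group. This held for chaperone genes as a whole. Without that library their calls went from 13 to 17 for zymosan in wild type and from 15 to 21 between genotypes after zymosan. The share of all genes called in that fit was not recorded. Over all 6 comparisons the log2 fold changes of the 7 cct genes lay between -0.20 and 0.54. The single call was cct2 in rraga mutants against wild type (0.54 ± 0.16, adjusted p = 0.0274). This cct2 entry is 330 bp long, at 27.6 to 29.1 CPM in rraga mutants against 17.6 to 22.6 CPM in wild type. Its call was lost without any 1 of the rraga libraries and without replicate 1 or 2 of uninjected wild type. Of the 5 pdia genes, with values between -0.49 and 0.43, pdia6 alone passed. Without replicate 3 of injected wild type, zymosan in wild type gave calls of cct2, cct3, cct5 and cct7 (0.49, 0.29, 0.37 and 0.35, adjusted p = 0.0491, 0.0479, 0.0146 and 0.0281). In that fit cct7 and pdia3 were lower in triple mutants after zymosan (-0.33 and -0.35, adjusted p = 0.028 and 0.0309). The 7 membrane J protein genes of the ER held no call. The most abundant member, hsp90ab1, lay between 3697 and 5472 CPM in all 15 libraries and did not pass in any comparison. Without the same library, at 4097 CPM against 5472 and 5218 CPM in its partners, it was lower in triple mutants than in wild type after zymosan (-0.41 ± 0.10, adjusted p = 0.0063). Of genes outside the naming rule, a second CCT2 entry in capitals, also on chromosome 4, did not pass in any comparison. In rraga mutants against wild type its value was 0.0084 (adjusted p = 0.975), at means of 277 and 276 CPM. DNAJA4 was at 32.1 to 39.1 CPM in uninjected triple mutants against 17.7 to 22.1 CPM in wild type (0.91 ± 0.28, adjusted p = 0.0426). It fell with zymosan in triple mutants (-1.17 ± 0.29, adjusted p = 0.00731). A further entry, si:ch211-199o1.2, was higher in uninjected triple mutants (1.71 ± 0.34, adjusted p = 0.00128) and fell with zymosan in them (-1.47 ± 0.33, adjusted p = 0.00356). The entry zgc:77086 was lower in triple mutants without and with zymosan (-0.35 ± 0.11 and -0.37 ± 0.11, adjusted p = 0.0426 and 0.0284). The entry zgc:100906 did not pass in any comparison. What these entries encode is not given here.

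Other genes of these pathways were read from lists of 35 further co-chaperones, 9 heat shock regulators and 59 unfolded protein response genes. After zymosan 7 of 59 unfolded protein response genes rose in wild type and 8 in triple mutants, and 0 fell in either. Among them were ppp1r15a, the phosphatase subunit that ends the translation block (0.98 and 0.64), trib3 (0.82 and 0.84), the transcription factor gene xbp1 (0.70 and 0.83), sdf2 (0.60 and 0.93) and the ER degradation gene herpud1 (0.68 and 0.93). Between genotypes 2 were higher and 7 lower in uninjected triple mutants, led by the translocon subunit ssr3 (-3.75 ± 0.28), the segregase vcp (-1.85 ± 0.13) and the ER factor manf (-1.03 ± 0.31). In rraga mutants against wild type 5 were higher and 2 lower, with derl3 (0.87), sdf2 (0.55) and asns (0.48) the most changed. With zymosan the share that changed was 11.9% in wild type, against 9.9% of all genes, and 8 of 59 in triple mutants, against 12.8% of all genes. Those shares of all genes count both directions. Only 6.07% of all genes rose in wild type and 7.64% in triple mutants. In uninjected triple mutants it was 15.3% against 9.77% of all genes. In rraga mutants against wild type it was 11.9%, below the 14% of all genes.

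Of the heat shock regulators, hsf2 rose with zymosan from 10.6, 15.7 and 18.1 to 38.2, 44.5 and 41.2 CPM in wild type (1.49 ± 0.20, adjusted p = 1.67e-05) and from 20.5, 15.1 and 13.2 to 50.6, 48.5 and 44.3 CPM in triple mutants (1.56 ± 0.20, adjusted p = 5.45e-06). The stress gene hmox1a (1.44 and 2.89) and the polyubiquitin gene ubb (0.75 and 0.86) rose as well. The main heat shock factor gene hsf1 did not pass in any comparison. Among the other co-chaperones, the HSP90 cofactor p23 gene ptges3a was at 0.192 to 0.61 CPM in uninjected wild type, 21.2 to 35.04 CPM in triple mutants and 30.7 to 39.6 CPM in rraga mutants. The wild-type libraries stood apart from both mutants (5.97 ± 0.30 and 6.31 ± 0.29, adjusted p = 1.61e-12 and 1.01e-12). With wild type under 1 CPM, the size of these folds is uncertain. The HSP90 activator gene ahsa1a was at 8.40, 13.4 and 7.49 CPM in wild type and 1.07, 1.84 and 3.23 CPM in rraga mutants (-2.25 ± 0.32, adjusted p = 3.83e-05). With zymosan, the HSP90 cofactor fkbp5 (1.00 and 1.14) and clpxb, which encodes a subunit of the matrix protease ClpXP (0.75 and 0.82), rose in both genotypes, and ahsa1b fell by 0.81 and by 0.76. The nucleotide exchange factor gene of hspa9, grpel1, rose by 0.52 and 0.80 with zymosan and by 0.52 in rraga mutants against wild type. Apart from hsf1, the genes named in this paragraph were picked from those that passed, so they do not describe their lists. Of all genes, 6.07% rose with zymosan in wild type and 7.64% in triple mutants.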

How the data were processed

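Total RNA of 15 samples was sequenced after NEBNext Ultra II library preparation, per the labels' protocols. Per the submitters' processing notes, the authors used HISAT2 2.0.5, StringTie 1.3.3b and featureCounts 1.5.0 with GRCz11; whether counting used strand is not stated, and overlapping, antisense or near-identical genes may share reads. The authors deposited 3 tables of 6 libraries, each with raw counts per gene, a scaled signal (not used here) and FPKM values, used only for levels per length. A gene missing from a table had a total under 2 there and was set to 0. Uninjected wild-type counts were listed in 2 tables. For replicate 1 they were identical for all 22631 genes, and the comparison for the other replicates was not recorded. Depth was 12314113 to 17566540 counts per library, and precision covers counting and replicate spread only; the p-values reflect only how these samples vary. No 2 replicates were identical (chi-square per degree of freedom 3.885 to 25.45 in 15 pairs).

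Counts were analysed with edgeR 4.0.16 (limma 3.58.1) in R 4.3.3: filterByExpr left 19006 genes, TMM factors were 0.85 to 1.187, and a quasi-likelihood fit over all 15 libraries had 1 mean for each group (common BCV 0.165). The 7 contrasts were tested with Benjamini-Hochberg adjustment over all genes, at 0.05, and every adjusted p comes from this test. Standard errors come from the F statistic, and CPM uses TMM-adjusted library sizes. The method was checked on simulated data. Named genes are those that passed, with values per library for up to 8 per contrast with the largest log2 fold change and no overlap, and for a fixed set of main chaperones. Alternatives were DESeq2 1.42.0, other scaling and filters, a replicate block, fewer groups and leaving out each library. The genes, lists and compartments were chosen with earlier results of these data known. The symbols CCT2 and DNAJA4, in capitals, are not matched by the rule. Promoters and proteins were not analysed here.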

Additional observations from a re-analysis of the deposited data

How the results depend on the processing

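The number of chaperone genes called kept within 1.5 times its value, in 6 of the 7 comparisons, under DESeq2, RLE scaling, no filter on low counts, a filter of at least 1 CPM in 3 libraries, a replicate block and a fit of only the groups compared. For the interaction, 0 genes became 1 (hsp90aa1.1) with no filter on low counts and 1 with only the groups compared. Leaving out each library in turn gave 6 to 11 genes for uninjected triple mutants against wild type, 10 to 21 for these genotypes after zymosan, 11 to 17 for zymosan in wild type, 14 to 16 for zymosan in triple mutants, 0 to 1 for the interaction, 14 to 18 for rraga mutants against wild type and 20 to 27 against triple mutants. Uninjected triple mutants fell from 12 to 6 without replicate 2 of uninjected wild type, which ended the calls of calr3b, dnajc4, dnajc6, hspb11, hspb15 and hspb6. The interaction gave 1 without replicate 3 of injected wild type. The calls kept in every such fit numbered 4 of 12, 9 of 15, 9 of 13, 11 of 20, 10 of 20 and 14 of 29 in the 6 comparisons between groups. They include serpinh1a, serpinh1b, bag3, hspd1, hspe1 and dnajb11 for zymosan in both genotypes, and hspa9 and hsp70l for triple mutants and for rraga mutants against wild type. A further check took only the genes of each contrast that passed with the largest log2 fold changes and no overlap between groups. Among 576 alternatives of these genes, 543 stayed on their side of the threshold, 33 lost the call and 0 reversed. Because the genes were picked for clear calls, this share cannot speak for the other genes named here. Counting CCT2 and DNAJA4, chosen after seeing the data, gave 13, 15, 13, 21, 0, 20 and 29 genes.

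No clear pairing by replicate number was seen: the correlations of same-numbered libraries lay between -0.122 and 0.104. With 3 libraries per group this cannot exclude pairing. With the replicate block the counts were 11, 14, 13, 19, 0, 20 and 28. Counts under about 1 CPM (hspb2, dnajc25, hspa4b, hspb9, and ptges3a in uninjected wild type) limit what can be said of those genes.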
